A study of Mus musculus with 39 samples.

Results

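Imprinted genes are transcribed from the maternal or the paternal chromosome only, under the control of differentially methylated regions, and several imprinted domains are most active in neurons. Among the long nuclear transcripts of this kind, Meg3, Rian and Mirg are maternally expressed RNAs of the Dlk1-Dio3 domain, and Rian and Mirg carry clusters of small nucleolar RNAs and microRNAs in their introns and exons. Kcnq1ot1 is a paternal non-coding RNA that silences its neighbours in cis, and Snhg14 is the long paternal host RNA of the Snrpn-Ube3a domain, which runs antisense over Ube3a, the ubiquitin ligase gene that neurons express from the maternal copy. Peg3 encodes a paternally expressed zinc finger protein, and Ndn and Magel2 encode paternally expressed MAGE-family proteins of the domain linked to Prader-Willi syndrome.

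These 9 transcripts (Meg3, Rian, Mirg, Snhg14, Kcnq1ot1, Peg3, Ndn, Magel2 and Ube3a) form the set examined. They were chosen by name as imprinted genes active in neurons, with earlier results of these data known. All 9 were found among the 24421 genes of the RNA-seq count tables. Their levels were compared between nuclei isolated by FANS (fluorescence-activated nuclear sorting) and by INTACT (capture of genetically tagged nuclei on magnetic beads), and the ATAC-seq peaks over their bodies and start sites were counted. The nuclei came from the neocortex of adult male and female mice that carried an Arc-CreERT2 transgene and a CAG-Sun1-sfGFP-Myc reporter on 1 or both alleles of the R26 locus. All animals received tamoxifen before a social interaction test, so that the Arc promoter, which is active in stimulated neurons, allowed Cre to tag nuclear envelopes with sfGFP, and both techniques collected the tagged nuclei. Neither technique had an untagged or untreated control among the samples. RNA libraries were made from 10000 nuclei, and the analysed tables held 4 FANS and 4 INTACT libraries in batch 1, 7 and 4 in batch 2, and 7 and 5 in batch 3. FANS replicate 3 and INTACT replicate 5 of batch 2 were not analysed here. The 6 ATAC libraries (3 per technique, 50000 nuclei each) were technical replicates of a single source. The study describes batch 1 as having the higher RNA integrity and each batch as a separate biological source, so batch, source and RNA quality cannot be told apart, and nothing said that libraries within a batch came from separate animals. All p-values therefore measure the spread between libraries. None of the tables separates alleles.

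Reads assigned to genes ranged from 4205665 to 11028713 per RNA library. In batch 1 the INTACT libraries held more of them (8621143 to 11028713, against 4853224 to 6066759 in FANS) and a smaller share of reads outside annotated features (73.9% to 75.5%, against 82.1% to 84.4%). That share was closer between the techniques in batch 2 (82.1% to 84.1% in FANS and 80.0% to 81.6% in INTACT) and batch 3 (82.8% to 87.7% and 84.5% to 85.6%). All 10 excitatory neuron markers examined were detected in every group, and their summed normalized count in batch 1 was 11669 to 11951 in FANS and 11364 to 11914 in INTACT. Glial markers moved with technique in batch 1, where the 16 oligodendrocyte genes summed to 6946 to 8623 in FANS and 11056 to 11711 in INTACT, and the 12 astrocyte genes to 7473 to 8213 and 8983 to 9255. No marker of these 2 lists was at 0 throughout a group, whereas 1 of 10 microglial and 1 of 10 vascular markers were at 0 in all FANS libraries of batch 1, with summed levels of 288.1 to 382.1 (FANS) and 308.0 to 345.7 (INTACT) for microglia and 61.3 to 110.1 and 92.3 to 104.0 for vascular cells. In such pooled nuclei, fewer cells of a type and less RNA per cell cannot be told apart.

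Meg3 was the most abundant of the set in every batch. A normalized count is the read count divided by a size factor set within each batch, so levels are compared only inside a batch. In batch 1 Meg3 took a mean of 2.01% of all reads on genes in FANS and 1.16% in INTACT. Per kb of exon, batch 1 FANS levels fell in the order Meg3 (11628 ± 372 normalized counts per kb, SD, n = 4), Rian (5092 ± 290), Peg3 (651 ± 39.2), Ube3a (527 ± 40.5), Mirg (328 ± 30.8), Kcnq1ot1 (236 ± 29.3), Snhg14 (91.5 ± 8.95), Ndn (39.7 ± 10.0) and Magel2 (1.69 ± 0.567). No neighbours in that order came within 1 SD of each other. In INTACT-nuclei of the same batch Meg3 (6589 ± 417, n = 4) and Rian (6496 ± 189) were level per kb, with a within-library log2 ratio of 0.02 ± 0.12 (SD), whereas the ratio in FANS was 1.19 ± 0.11. Peg3 and Ube3a were within 1 SD of each other in both groups of batch 2 and in FANS-nuclei of batch 3, and Mirg and Kcnq1ot1 in both groups of batch 3. The order depends on the length used. The length of the whole gene body in place of the exons left only 3 of 9 ranks as they were in batch 1 FANS (Meg3, Rian and Magel2), and unspliced Kcnq1ot1 moved from rank 6 to rank 3. The Snhg14 model behind the counts is not given in the sources used here.

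**Figure D1:**
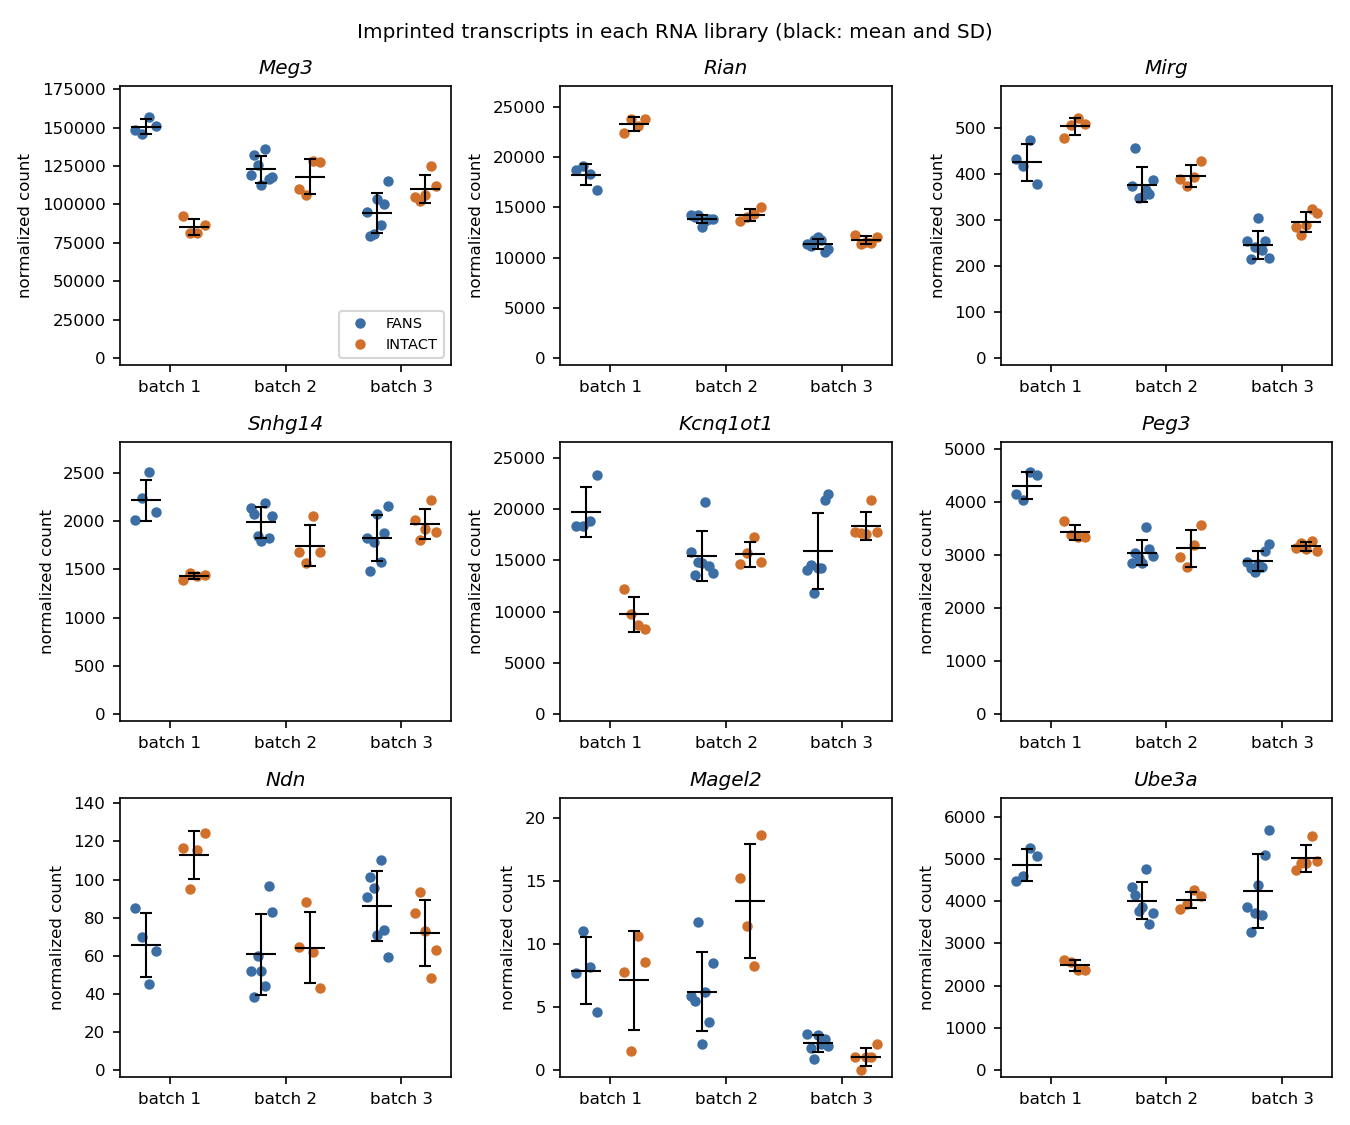
Normalized counts (vertical axes, linear) of the 9 transcripts in each RNA library, by batch (horizontal axes), with FANS in blue and INTACT in orange and the black bars giving the mean and SD. In batch 1 the colours separate for 8 of 9 transcripts and in batches 2 and 3 for none; counts were scaled within each batch, so heights are not compared across batches.

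The first comparison asked whether the isolation technique changed the level of each transcript in batch 1. Meg3, Snhg14, Kcnq1ot1 and Ube3a were lower and Ndn was higher in INTACT, with an adjusted p under 0.05 and at least 1.5-fold apart (limma, Benjamini-Hochberg over 15114 genes). Genes called this way made up 3.94% (lower) and 4.03% (higher) of all genes tested. Rian, Mirg and Peg3 passed the adjusted p without reaching 1.5-fold. With the called transcripts, 8 of the 9 passed the adjusted p, against 36.1% of all genes. The shares of all genes were not matched for level. The FANS and INTACT libraries did not overlap for the same 8, against 33.6% of all genes. The median log2 fold change over the 9 was -0.33, and 0.01 over all genes.

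Within the Dlk1-Dio3 domain Meg3 fell while Rian and Mirg rose. Meg3 was at 148771, 145756, 157131 and 150974 normalized counts in the 4 FANS libraries and at 92604, 81196, 81271 and 86426 in the 4 INTACT libraries. Every INTACT value lay far under every FANS value. The log2 fold change was -0.82 ± 0.05 (SE; limma adjusted p = 1.92e-12; exact permutation p = 0.0286, the smallest that 4 against 4 can give). Rian, which follows Meg3 on the same strand, was at 18749, 19131, 18348 and 16765 in FANS and at 22388, 23797, 23125 and 23813 in INTACT. Here all INTACT libraries were above all FANS libraries, with a log2 fold change of 0.35 ± 0.04 (adjusted p = 4.37e-07). Mirg, the most distal of the 3, was at 433, 418, 474 and 377 in FANS and at 478, 506, 521 and 510 in INTACT (log2 fold change 0.25 ± 0.07, adjusted p = 0.0073). The lowest Mirg value in INTACT was just above the highest in FANS.

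A ratio inside a library does not depend on the scaling of the table. The ratio of Rian to Meg3 was 0.121 ± 0.009 (SD, n = 4) in FANS and 0.274 ± 0.022 (n = 4) in INTACT in batch 1, with no overlap (0.111 to 0.131 and 0.242 to 0.293). Its log2 difference was 1.17 (two-sided exact permutation p = 0.0286, 0.0857 after Benjamini-Hochberg adjustment over 12 ratio tests, so it fails the correction in a design whose smallest p is 0.0286). In batch 2 the ratios were 0.113 ± 0.007 (n = 7) and 0.121 ± 0.009 (n = 4), and in batch 3 they were 0.122 ± 0.019 (n = 7) and 0.107 ± 0.010 (n = 5). Those ranges overlapped, with exact permutation p = 0.136 and 0.155. Mirg over Rian in batch 1 was 0.0233 ± 0.0018 for FANS and 0.0216 ± 0.0006 for INTACT (exact permutation p = 0.0857), and 0.0217 ± 0.0024 and 0.0252 ± 0.0021 in batch 3 (exact permutation p = 0.0253, adjusted 0.0857). In batch 2 it was 0.0272 ± 0.0025 and 0.0277 ± 0.0009 (exact permutation p = 0.67). Kcnq1ot1 over Meg3 gave exact permutation p = 0.229, 0.445 and 0.926 in batches 1, 2 and 3. No ratio passed the adjustment over the 12 tests. The ratios were chosen after the values had been seen. For Rian over Meg3 in batch 1, both genes had already separated by technique in opposite directions. Its smallest p was therefore fixed in advance and is no test.

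Kcnq1ot1 was about as much lower as Ube3a in batch 1. It was at 18376, 18320, 18794 and 23361 normalized counts in FANS and at 12162, 9728, 8709 and 8340 in INTACT. FANS replicate 4 stood above the other 3, and no INTACT library reached the FANS range. The log2 fold change was -1.03 ± 0.08 (SE, adjusted p = 5.3e-10). It stayed called without any single library. Without FANS replicate 4 it was -0.94, the same as Ube3a with that library also left out. The whole Kcnq1ot1 body, 1 exon of 83437 bp at chr7:143213111-143296547 on the minus strand (GRCm38), lies opposite the Kcnq1 gene. The strand setting of the read counting was not given in the sources used here, so reads of the sense and antisense genes may not have been separated.

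Ube3a and its antisense partner Snhg14 fell together in batch 1. Ube3a was at 4490, 4594, 5264 and 5074 in FANS and at 2608, 2568, 2378 and 2371 in INTACT (log2 fold change -0.97 ± 0.05, adjusted p = 5.58e-13). Snhg14 was at 2015, 2241, 2507 and 2094 in FANS and at 1386, 1465, 1429 and 1440 in INTACT (log2 fold change -0.63 ± 0.06, adjusted p = 3.37e-09). In both genes the INTACT libraries formed a narrow group under all FANS libraries. Without FANS replicate 3, the library with the highest Snhg14 count, the Snhg14 log2 fold change was -0.56 and no longer reached 1.5-fold. The 2 genes overlap over 38101 bp on opposite strands. With the strand setting of the counting not given, reads of either gene may have been counted in the row of the other. Ube3a over Snhg14 was 2.20 ± 0.17 in FANS and 1.74 ± 0.11 in INTACT (exact permutation p = 0.0286, adjusted 0.0857), and the ranges did not overlap, although the adjusted value misses 0.05. In batch 2 that ratio went the other way, 2.02 ± 0.13 against 2.33 ± 0.19 (exact permutation p = 0.0152, adjusted 0.0857), and in batch 3 it was 2.31 ± 0.26 and 2.56 ± 0.13 (exact permutation p = 0.0821, adjusted 0.171).

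Of the paternally expressed protein-coding genes, Peg3 was modestly lower and Ndn higher in INTACT in batch 1. Peg3 was at 4142, 4038, 4560 and 4502 in FANS and at 3644, 3378, 3332 and 3348 in INTACT, a log2 fold change of -0.33 ± 0.05 (adjusted p = 3.75e-06). Ndn was at 84.9, 69.9, 45.0 and 62.7 in FANS and at 116.8, 94.8, 115.6 and 124.3 in INTACT, a log2 fold change of 0.80 ± 0.16 (adjusted p = 0.000268). Its reads were few, 33 to 66 per FANS library and 124 to 188 per INTACT library. Magel2 was close to the detection limit, with 3 to 9 reads per FANS library and 2 to 16 per INTACT library. Its log2 fold change of -0.28 ± 0.47 (adjusted p = 0.682) turned to 0.21 without INTACT replicate 2.

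**Figure D2:**
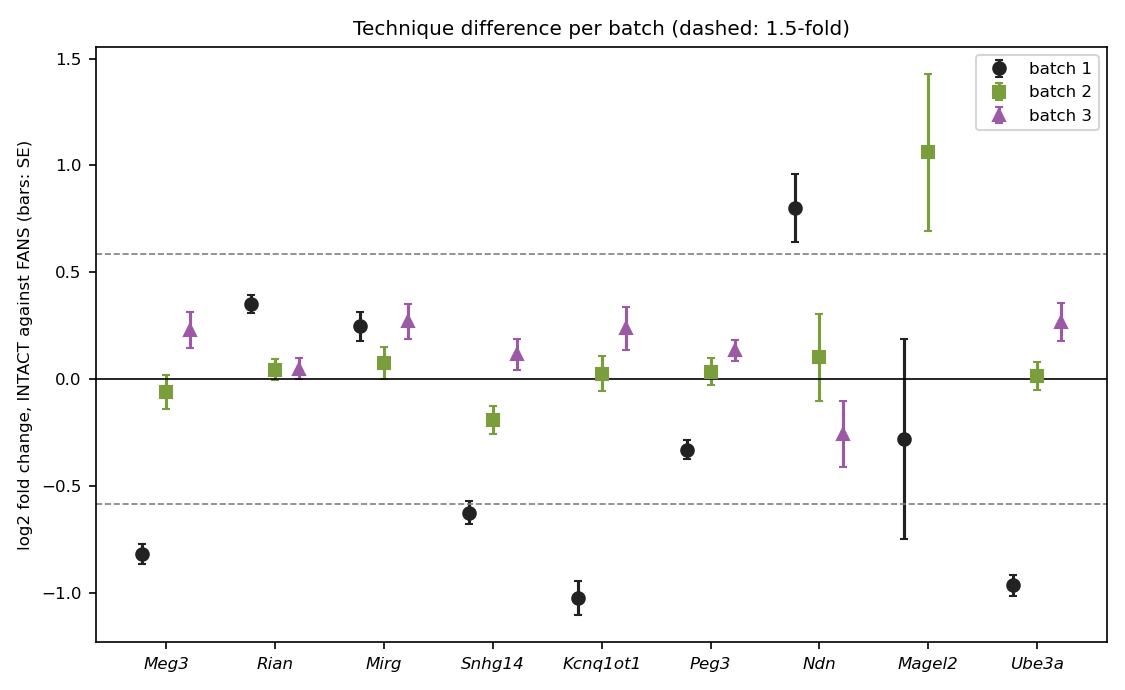
Log2 fold change of INTACT against FANS (vertical axis; bars are the SE of the limma fit) for each transcript in batches 1 (circles), 2 (squares) and 3 (triangles), with dashed lines at 1.5-fold. The batch 1 values of Meg3, Snhg14, Kcnq1ot1 and Ube3a lie under the lower line and Ndn above the upper, while Magel2 of batch 2 (1.06, adjusted p = 0.142) is past the line without passing the test; Magel2 was not tested in batch 3.

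Neither of the other batches gave a call. In batch 2, 0 of 9 transcripts were called by limma, edgeR or DESeq2 (background 0.0336% lower and 0.0941% higher), and 2, Snhg14 and Magel2, had an unadjusted p under 0.05 with each tool. The FANS and INTACT ranges overlapped for all 9, and 2.99% of all genes did not overlap. Meg3 spanned 112356 to 135991 (median 119449) in 7 FANS libraries and 106400 to 128083 in 4 INTACT libraries, a log2 fold change of -0.06 ± 0.08. Kcnq1ot1 spanned 13554 to 20709 (median 14744) in FANS and 14593 to 17269 in INTACT (0.03 ± 0.08), and Ube3a 3461 to 4772 (median 3872) and 3825 to 4260 (0.01 ± 0.06). The INTACT values of Kcnq1ot1 and Ube3a lay inside the FANS ranges, whereas for Meg3 INTACT replicates 1 and 2 lay below every FANS library and the others inside the range. Snhg14 was lower on average in INTACT, with a log2 fold change of -0.19 ± 0.07 (adjusted p = 0.144; exact permutation p = 0.0485). Magel2 was at 2.03 to 11.8 normalized counts (median 5.89) in FANS and 8.23 to 18.7 in INTACT, 1.06 ± 0.37 on the log2 scale (adjusted p = 0.142; exact permutation p = 0.0242), from 2 to 17 reads per library.

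In batch 3, 8 of 9 transcripts were tested, because Magel2 had a mean count under 5, and 0 were called by any of the 3 tools (background 0.346% lower and 0.0139% higher). Limma and edgeR gave 5 with an unadjusted p under 0.05 and DESeq2 gave 3. No transcript had separate ranges, against 1.59% of all genes. The log2 fold change was 0.27 ± 0.08 for Mirg (adjusted p = 0.0869), 0.27 ± 0.09 for Ube3a (0.138), 0.24 ± 0.10 for Kcnq1ot1 (0.274) and 0.23 ± 0.08 for Meg3 (0.189). It was 0.14 ± 0.05 for Peg3 (0.188), 0.12 ± 0.07 for Snhg14 (0.509), 0.05 ± 0.05 for Rian (0.717) and -0.26 ± 0.15 for Ndn (0.492). The sign in batch 3 was opposite to that of batch 1 for Meg3, Kcnq1ot1, Ube3a, Snhg14, Peg3 and Ndn, none of which passed the test there. Magel2 had at most 3 reads per library, and 1 INTACT library had 0.

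The FANS libraries of batch 3 were not alike. Kcnq1ot1 was at 20835 and 21445 in FANS replicates 6 and 7 and at 11779 to 14508 in the other 5, while the 5 INTACT libraries spanned 17586 to 20852, above those 5 FANS libraries and reaching the level of the other 2. The same 2 libraries were the highest of their group for Ube3a (5087 and 5696) and for the share of reads outside features (86.0% and 87.7%, against 82.8% to 84.6%). The part of that share in the result was not tested. Without both libraries, an alternative added after the data had been seen, the log2 fold changes were 0.41 for Kcnq1ot1, 0.41 for Ube3a, 0.31 for Meg3 and 0.19 for Peg3, all under 1.5-fold. Since these 2 libraries were known to be the highest FANS libraries for Kcnq1ot1 and Ube3a, leaving them out had to raise those values, and they are given as a description with no test.

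The technique effect itself was then compared between batches (limma, all 31 libraries, 8 of the 9 transcripts in the fit). Between batches 1 and 2 it differed for Meg3, Rian, Snhg14, Kcnq1ot1, Peg3 and Ube3a, while 6.3% of 14332 genes did so. The differences of log2 fold changes were -1.05 for Kcnq1ot1 (adjusted p = 3.3e-05), -0.98 for Ube3a (1.54e-06), -0.76 for Meg3 (3.23e-05) and 0.31 for Rian (0.00277). Between batches 1 and 3 the same 6 and Ndn differed, against 23.3% of genes, with -1.26 for Kcnq1ot1 (1.31e-07), -1.23 for Ube3a (1.1e-09), -1.05 for Meg3 (5.53e-09) and 1.06 for Ndn (0.00596). Mirg differed in neither (adjusted p = 0.431 and 0.905). Between batches 2 and 3 no gene passed the adjusted p in limma, and 1831 genes, 3 of them in the set, had an unadjusted p under 0.05.

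Genes of other cell types and other RNA classes also moved in batch 1. Of the oligodendrocyte markers 9 of 16 and of the astrocyte markers 6 of 12 were called, all higher in INTACT, with median log2 fold changes of 0.61 and 0.64. None of 10 excitatory neuron markers was called, with a median of 0.02, and 4 were higher and 2 lower at the adjusted p alone. Of 7 tested inhibitory neuron markers 3 were higher and 1 lower, of 6 microglial markers 1 and 1, and of 4 vascular markers 2 and 1. Abundant cytoplasmic mRNAs were higher (6 of 20 called, median 0.45), and 5 other nuclear long non-coding RNAs had a median of -0.22, with none called and 3 lower at the adjusted p alone. In batch 2, where none of the imprinted transcripts was called, 5 of 15 oligodendrocyte markers were still called higher (median 0.53), and in batch 3 none of 15 (median 0.23). The medians of the cytoplasmic mRNAs were 0.11 and -0.16 in batches 2 and 3, and those of the nuclear long non-coding RNAs 0.07 and 0.13, so both lists had the opposite sign in batch 3 to that in batch 1. The part of these shifts in the imprinted transcripts' values was not tested.

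Other genes of the imprinted domains were examined from lists. Of 51 tested genes from 5 lists of other imprinted genes, 5 were called in batch 1 (2 higher and 3 lower, where 4.03% and 3.94% of all genes were), a share near that of all genes, with a median log2 fold change of -0.10. At the adjusted p alone 11 were higher and 18 lower, 29 of 51, where 36.1% of all genes passed. The 5 are named for their place in the domains. The row of Rtl1, a paternally expressed retrotransposon-like gene on the strand opposite Meg3 and Rian, fell (464.7 ± 45.5 to 296.2 ± 15.9 normalized counts, log2 fold change -0.64), as did Ipw, a non-coding RNA inside the Snhg14 body (6554 ± 1134 to 3928 ± 231, -0.73), and Magi2, a synaptic scaffold gene (2528 ± 182 to 1594 ± 47.7, -0.66). Mir431, Mir433, Mir127, Mir434, Mir432 and Mir136, which lie inside Rtl1 on the other strand, were at 0 in every batch, while Mir493 and Mir665 outside it were not, so the Rtl1 row may hold reads of either strand. Cd81, a tetraspanin gene at the edge of the Kcnq1 domain (291.2 ± 36.7 to 468.5 ± 21.5, 0.69), and Peg10, a retrotransposon-derived gene (44.3 ± 0.804 to 69.4 ± 13.5, 0.62), rose. The lists' medians were 0.03 for the Dlk1-Dio3 domain (4 tested), -0.33 for the Snrpn-Ube3a domain (4), 0.11 for the Kcnq1 domain (6), 0.22 for the Peg3 domain (2) and -0.15 for the other domains (35). In batch 2, 0 of 50 and in batch 3, 0 of 47 were called by limma, edgeR or DESeq2, and an unadjusted p under 0.05 was given to 8, 7 and 6 of them in batch 2 and to 11, 12 and 11 in batch 3 by the 3 tools in that order. At the adjusted p alone limma passed Magi2 in batch 2 (-0.22, adjusted p = 0.0242) and Ppp1r9a in batch 3 (-0.25, 0.0121).

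The count tables hold separate rows for the small RNA genes between the start of Meg3 and the end of Mirg, 208463 bp at chr12:109540996-109749458 (GRCm38). These rows count reads of nuclear RNA over hairpin and small RNA loci, not mature microRNAs, and many of their counts are low, although AF357359, inside Rian, had a batch 1 mean of 858.5 normalized counts and Rtl1 of 380.4. From Meg3 towards Rian, 6 of 6 tested rows (Rtl1 among them) had a negative log2 fold change in batch 1, with a median of -0.84 and 3 called lower, where 3.94% of all genes were. In batch 2 all 6 were also negative (median -0.30), and in batch 3, 4 of 5 were positive (median 0.32), with none called in either. In the Rian body 7 of 9 were negative (median -0.41, 2 called, Mir1188 at -0.69 and AF357425 at -0.87), while AF357359, the row with the highest count, was higher at 0.42 (adjusted p = 1.32e-05) without reaching 1.5-fold. In batch 2, 8 of 9 rows there were negative and in batch 3, 7 of 9 were positive, with none called. Between Rian and Mirg 12 of 25 were negative (median 0.04, 1 called), and in the Mirg body 2 of 7 (median 0.04, none called). In that body 5 of 7 were negative in batch 2 (median -0.04) and all 7 positive in batch 3 (median 0.41), with none called. The rows called lower among the microRNA genes were Mir493 (-1.81, adjusted p = 0.00014), Mir665 (-1.40, 3.55e-05), Mir411 (-1.24, 0.0251) and Mir1188 (-0.69, 8.9e-05). Near Mirg, Mir382 (0.49, adjusted p = 0.0343) and Mir134 (0.54, 0.0302) were higher without reaching 1.5-fold. In batch 3 all 24 tested rows between Rian and Mirg were positive (median 0.42), with none called, and in batch 2 there were 16 positive and 11 negative. The rows share libraries and some overlap longer transcripts, so their counts are a description.

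The mature sequences of the 4 called microRNA genes are given because their rows passed the test, with the 5p sequences of Mir382 and Mir134 for contrast (RefSeq, GRCm38.p6; capitals mark the seed, bases 2 to 8). Of 102 different seeds among 112 mature sequences of the interval, 10 are held by more than 1 sequence, and the seed of miR-411-3p is such a seed, shared with miR-379-3p, which is printed beside it.
miR-493-5p: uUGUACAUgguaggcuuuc
miR-493-3p: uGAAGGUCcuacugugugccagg
miR-665-5p: aGGGGCCUcugccucuauccaggauu
miR-665-3p: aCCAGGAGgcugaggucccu
miR-1188-5p: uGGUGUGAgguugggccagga
miR-1188-3p: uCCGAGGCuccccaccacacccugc
miR-411-5p: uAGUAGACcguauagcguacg
miR-411-3p: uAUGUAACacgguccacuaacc
miR-379-3p: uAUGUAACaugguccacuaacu
miR-382-5p: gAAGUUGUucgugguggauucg
miR-134-5p: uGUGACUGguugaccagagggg

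**Figure D3:**
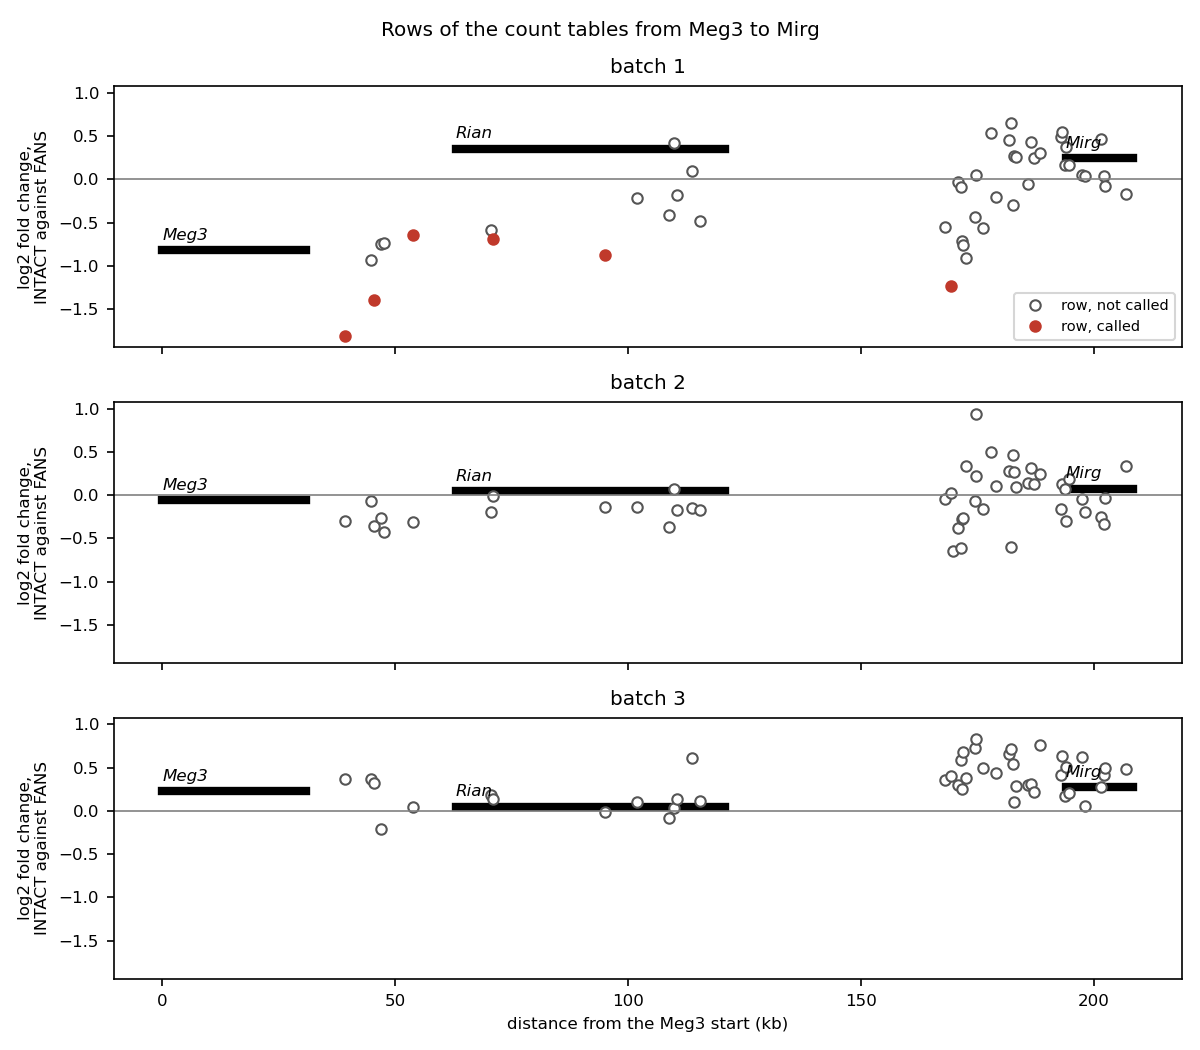
Log2 fold change of INTACT against FANS (vertical axes) for the tested rows of the count tables against distance from the Meg3 start in kb (horizontal axis), 1 panel per batch, with black bars for Meg3, Rian and Mirg, open circles for rows that were not called and red circles for called rows. In batch 1 the 6 called rows all lie under 0 while the Rian and Mirg bars lie above it, and in batch 3 all 24 rows between Rian and Mirg lie above 0.

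Likeness between genes was described over the 31 RNA libraries as Pearson's r of log2(normalized count + 1), centred within batch, with the value after centring also within technique in second place; 9610 genes were compared (9611 for Magel2). Meg3 was most like Arpp21 (0.95 and 0.87), Srek1 (0.95 and 0.87) and Ube3a (0.95 and 0.81). The nearest genes to Ube3a were C230091D08Rik (0.98 and 0.94), Meg3 and Camk2a (0.95 and 0.84). For Kcnq1ot1 they were Pcsk2os2 (0.95 and 0.87), Apc (0.93 and 0.87) and Ube3a (0.93 and 0.78), and for Snhg14 they were Cspp1 (0.94 and 0.84), Rbm6 (0.94 and 0.83) and Arpp21 (0.93 and 0.80). Rian stood with another group, Hdac3 (0.93 and 0.74), Sf3b1 (0.92 and 0.71) and Map3k12 (0.92 and 0.77). Between Rian and Meg3 themselves r was -0.69, and -0.09 once technique was also centred. Mirg was most like Cstf2 (0.87 and 0.78), Llgl1 (0.86 and 0.73) and Pisd-ps1 (0.85 and 0.71), and Peg3 like Bptf (0.92 and 0.82), Nav1 (0.88 and 0.77) and Meg3 (0.86 and 0.73). Ndn was nearest to Tusc3 (0.86 and 0.84), Rgs4 (0.85 and 0.79) and Yipf4 (0.85 and 0.78), and Magel2 to Epn1 (0.65 and 0.57), Srf (0.59 and 0.52) and Xpa (0.58 and 0.50). The libraries share depth and RNA quality, so these values are given without a test.

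The second assay, ATAC-seq, marks chromatin open to the transposase, and its files list peaks without read counts. The lists held 123596, 128910 and 130088 peaks in FANS and 113224, 99514 and 123895 in INTACT. Chromosome 7, which carries 6 of the 9 genes, had the lowest ratio of INTACT to FANS peaks of all chromosomes (0.674, against 0.88 in total), and chromosome 12, with the other 3, had 0.906. With 3 lists against 3, the exact permutation test cannot give a p under 0.1.

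Fewer peaks were listed in INTACT over the Meg3 and Mirg bodies, and over the Rian body in 2 of 3 INTACT lists. The Meg3 body held 6, 6 and 7 peaks in the FANS lists and 2, 1 and 2 in the INTACT lists. For Rian there were 4, 5 and 4 against 1, 1 and 4, and for Mirg 1, 1 and 2 against none in any list. The Rian counts overlapped in INTACT replicate 3, the longest INTACT list. The Snhg14 body, 1177441 bp long, held 8, 11 and 7 peaks against 5, 4 and 6. Every FANS list exceeded every INTACT list for Meg3, Mirg and Snhg14, 3 of 9 genes, where 17.1% of 18831 genes with a body peak did so (exact permutation p = 0.1 for each). Kcnq1ot1 had 1, 2 and 2 against 1, 1 and 1, Peg3 3, 3 and 3 against 2, 2 and 3, Ube3a 1, 4 and 3 against 2, 1 and 1, and Ndn and Magel2 had a single peak in all 6 lists.

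Over the whole interval from Meg3 to Mirg there were 22, 24 and 27 peaks in FANS and 6, 3 and 11 in INTACT. The interval was chosen after its counts had been seen, so they are a description with no test. At a -log10 q of at least 5 there were 8, 15 and 12 against 4, 2 and 6. Merged over lists they formed 36 regions, of which 24 were listed in FANS only (6 of them in all 3 FANS lists), 1 in INTACT only and 2 in all 6. For scale, 4050 genes had a FANS mean of at least 5 body peaks, with a median INTACT to FANS ratio of 0.817, and 12.4% of them had a ratio at or under 0.5. The 2 regions listed in every library lay 2068 bp after the Meg3 start (fold enrichment 11.2, 12.1 and 9.47 in FANS and 7.78, 6.97 and 6.82 in INTACT), in the first intron, and between Rian and Mirg (7.53, 7.53 and 7.38 against 6.27, 3.93 and 6.36). The peak at the Meg3 start itself was lower (5.47, 6.10 and 6.27 in FANS) and was not listed in INTACT replicate 2.

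**Figure D4:**
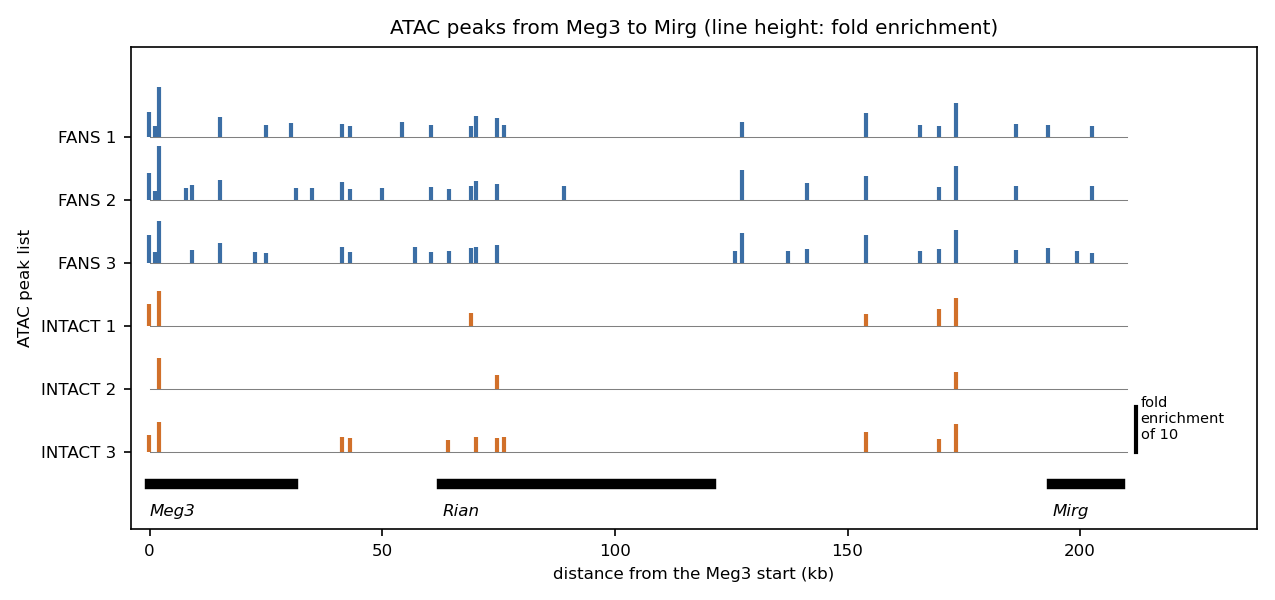
ATAC peaks between the Meg3 start and the Mirg end in the 6 lists (rows), against distance from the Meg3 start in kb, with line height giving fold enrichment (scale bar: 10) and black bars the gene bodies. The FANS rows hold 22 to 27 peaks and the INTACT rows 3 to 11.

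At the start sites, 6 of 9 genes had a peak within 3 kb in all 6 lists (Meg3, Kcnq1ot1, Peg3, Ndn, Magel2 and Ube3a), against 60.4% of 26089 genes. Snhg14 had none within 3 kb of its annotated start in any list. The peaks inside its body that all 6 lists shared included the region at chr7:60002901-60005261 (fold enrichment 6.26, 7.28 and 6.27 in FANS and 5.56, 4.71 and 5.35 in INTACT). The median summit of that region lay in introns of Snurf, Snrpn and Snhg14 itself. What the rest of the region overlaps was not examined. The other 2 shared peaks lay upstream, with summits in introns of Snrpn. Among the 8 genes with a start-site peak in any list, the highest fold enrichment was above all INTACT lists in every FANS list for 3 (Meg3, Ndn and Magel2), while 51.2% of 18657 genes were so. Ndn was at 13.1, 16.5 and 16.2 in FANS and 12.5, 9.94 and 9.29 in INTACT, and Magel2 at 6.54, 5.99 and 7.01 against 4.58, 3.49 and 4.86. Ube3a, lower as RNA in INTACT in batch 1, had start-site peaks of 14.8, 15.3 and 15.0 in FANS and 14.3, 13.8 and 15.9 in INTACT. Kcnq1ot1 was at 15.9, 15.2 and 14.6 against 12.3, 10.9 and 14.7, with overlapping ranges, and Peg3 at 8.44, 8.27 and 8.35 against 8.43, 7.55 and 8.44. Relative to the median start-site peak of each list, Ube3a stood higher in INTACT (log2 0.38 ± 0.02, SD, against 0.17 ± 0.02 in FANS) and Peg3 less far below it (-0.47 ± 0.07 against -0.67 ± 0.02). Relative values of Magel2 (-1.40 ± 0.16 against -1.04 ± 0.11) and Meg3 (-0.65 ± 0.18 against -0.29 ± 0.19) stood lower in INTACT. For Ndn they were -0.10 ± 0.29 in INTACT and 0.19 ± 0.18 in FANS, and for Kcnq1ot1 0.15 ± 0.10 and 0.19 ± 0.07. How many of all genes shift this far on the relative scale was not computed, so these values are a description.

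**Figure D5:**
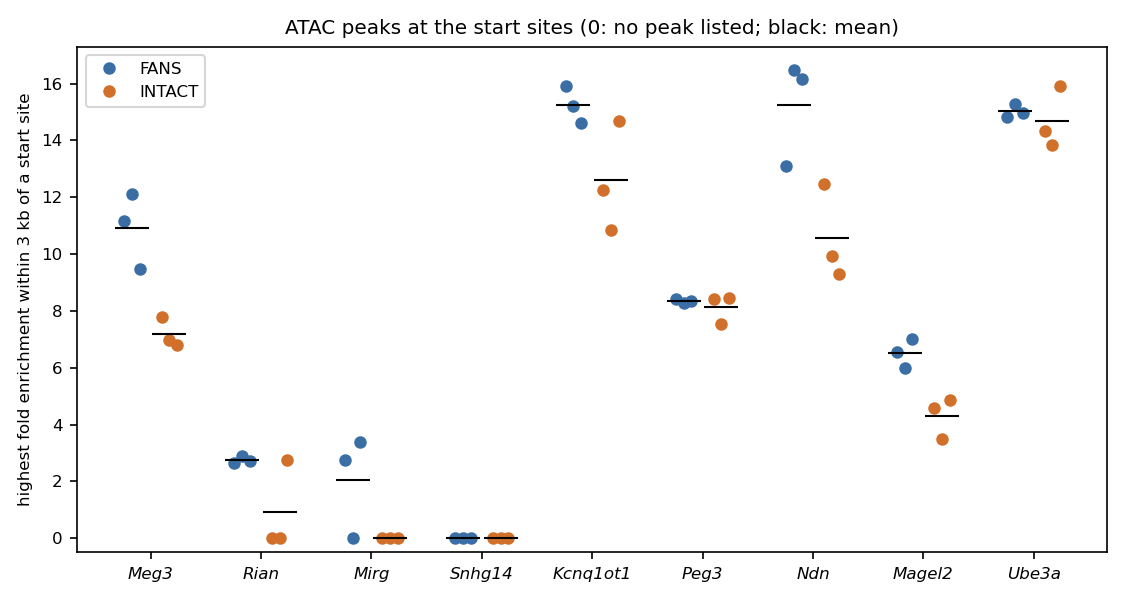
Highest fold enrichment of an ATAC peak within 3 kb of a start site (vertical axis, linear; 0 means no peak listed) for each gene in the 3 FANS (blue) and 3 INTACT (orange) lists, with black dashes for the means. Ube3a and Peg3 overlap between the techniques, and all FANS points of Meg3, Ndn and Magel2 lie above the INTACT points.

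The start-site windows are printed for Meg3 (its first start), Peg3, Ube3a and Kcnq1ot1. They run from 250 bases before to 50 after the annotated start (RefSeq, GRCm38.p6, 5′ to 3′ on the gene's strand). Windows of 300 bases around the median summit of the highest peak are added for Meg3 and Peg3, because in both genes this peak lay in the first intron and not at the start. Capitals mark any match, on either strand, to TGCCGC (core of the ZFP57 site), GCCATNTT (core of the YY1 site), TGACGTCA (the cAMP response element) or CGCGCG. Among 32807 promoter windows of the mouse these were present in 11.6%, 6.04%, 1.79% and 11.3%.
The Meg3 start window is chr12:109540746-109541045 on the plus strand.
Meg3 start: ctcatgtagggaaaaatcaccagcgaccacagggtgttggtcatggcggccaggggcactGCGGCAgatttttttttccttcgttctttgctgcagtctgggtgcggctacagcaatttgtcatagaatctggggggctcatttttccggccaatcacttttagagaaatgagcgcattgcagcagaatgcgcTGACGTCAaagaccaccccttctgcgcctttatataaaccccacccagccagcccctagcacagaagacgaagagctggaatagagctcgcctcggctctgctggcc
The Meg3 first-intron window is chr12:109542914-109543213 on the plus strand.
Meg3 intron: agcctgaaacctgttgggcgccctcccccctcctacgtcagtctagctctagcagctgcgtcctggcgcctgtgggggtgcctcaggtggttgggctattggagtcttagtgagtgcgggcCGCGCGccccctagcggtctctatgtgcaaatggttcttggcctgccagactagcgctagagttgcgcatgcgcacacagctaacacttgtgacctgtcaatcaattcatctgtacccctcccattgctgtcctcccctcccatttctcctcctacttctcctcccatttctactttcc
The Peg3 start window is chr7:6730370-6730669 on the minus strand.
Peg3 start: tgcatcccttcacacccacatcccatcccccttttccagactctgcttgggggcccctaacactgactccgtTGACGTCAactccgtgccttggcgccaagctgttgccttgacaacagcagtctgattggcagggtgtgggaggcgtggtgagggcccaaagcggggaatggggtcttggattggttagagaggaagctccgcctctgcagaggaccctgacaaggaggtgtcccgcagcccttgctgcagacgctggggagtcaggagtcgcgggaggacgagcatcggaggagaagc
The Peg3 first-intron window is chr7:6728531-6728830 on the minus strand.
Peg3 intron: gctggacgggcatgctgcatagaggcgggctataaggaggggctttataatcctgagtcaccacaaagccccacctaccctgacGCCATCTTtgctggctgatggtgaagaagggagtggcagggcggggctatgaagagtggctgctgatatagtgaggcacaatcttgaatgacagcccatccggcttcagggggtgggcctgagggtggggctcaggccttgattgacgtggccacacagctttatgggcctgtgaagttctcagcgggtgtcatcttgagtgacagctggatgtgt
The Ube3a start window is chr7:59228500-59228799 on the plus strand.
Ube3a start: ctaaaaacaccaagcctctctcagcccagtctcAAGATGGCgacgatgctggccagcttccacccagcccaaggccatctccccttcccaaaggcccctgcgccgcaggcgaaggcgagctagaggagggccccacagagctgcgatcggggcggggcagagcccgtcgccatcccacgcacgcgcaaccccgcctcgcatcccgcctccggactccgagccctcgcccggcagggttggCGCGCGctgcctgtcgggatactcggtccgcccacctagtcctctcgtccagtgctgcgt
The Kcnq1ot1 start window is chr7:143296498-143296797 on the minus strand.
Kcnq1ot1 start: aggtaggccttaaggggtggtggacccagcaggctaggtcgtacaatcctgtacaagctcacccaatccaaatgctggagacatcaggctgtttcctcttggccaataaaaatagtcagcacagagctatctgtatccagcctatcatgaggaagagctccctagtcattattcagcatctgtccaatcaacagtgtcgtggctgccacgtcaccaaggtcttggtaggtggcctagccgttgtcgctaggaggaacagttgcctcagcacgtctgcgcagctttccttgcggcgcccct

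The first Meg3 start and the Peg3 start each held a cAMP response element, which 1.79% of windows hold. Meg3 also had 1 match to the ZFP57 core, and Ube3a held 1 YY1 core and 1 CGCGCG. The Peg3 intron window, under the peak with 8.27 to 8.44 in FANS, had 1 YY1 core, and the Meg3 intron window 1 CGCGCG. Kcnq1ot1 held none of the 4, nor did the windows of Ndn, Magel2, Rian, Mirg, Snhg14 and the second Meg3 start. The Ube3a window was the richest in C and G (69% with 29 CG dinucleotides, against medians of 52.7% and 7 over all windows), followed by Peg3 (61.3%, 13). Snhg14 had the lowest share (45%, 2), and Rian had 49.3% and no CG dinucleotide. A match is a description of the letters and was not tested against the peaks.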

How the data were processed

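RNA-seq (33 libraries labelled, 31 analysed) and ATAC-seq (6 libraries) were taken as processed by the authors. Per the labels and methods, reads were aligned to mm10 with STAR, duplicates were removed with unique molecular identifiers, genes were counted with HTSeq, and the deposited signal is the read count divided by a DESeq size factor set within each batch. The HTSeq strand setting is not given in the sources used here. The deposited ATAC peak lists were called by MACS2 per library and hold a fold enrichment (a ratio), −log10 p- and q-values, and a score of 10 times the −log10 q. Their read depth is unknown, and the shift applied to reads is not given in the sources used here.

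Values were tested as log2(normalized count + 1), so changes of low genes are understated, in genes with a mean of at least 5, with limma 3.58.1 (trend) within each batch, and between batches in 1 fit. Calls needed an adjusted p under 0.05 and 1.5-fold. Exact tests were two-sided permutations over libraries. Whole reads were recovered for 100% of values (within 0.1 read) and tested with edgeR 4.0.16 and DESeq2 1.42.0 (R 4.3.3); edgeR called 1254, 19 and 56 genes in batches 1, 2 and 3. The 5 summary rows of each table were left out of all tests. A peak belonged to a body on overlap by 1 bp or to a start site within 3 kb. The limma code was tested on simulated data. Gene models and sequences were from RefSeq (GRCm38.p6), where 9 of 9 genes matched. Named genes were the set itself, called genes of the imprinted lists and the 3 most alike genes (mean of at least 50 in every batch). Genes of those lists that passed only the adjusted p in batch 2 or 3 were also named. So were rows between Meg3 and Mirg and genes that overlap the set. Ratios, the interval from Meg3 to Mirg, the rows inside it and the omission of FANS replicates 6 and 7 were added after values were seen. The genes and lists were chosen with earlier results of these data known. SDs, SEs and p-values are over libraries, which were not shown to come from separate animals.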

Additional observations from a re-analysis of the deposited data

Results flagged for a closer look

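A library stood apart from the rest of its group, with a gap to its neighbour that was large for the group's range, in 7 of 54 groups of libraries, and chance flags about 1 in 20 groups. These were the Kcnq1ot1 count of 23361 in FANS replicate 4 of batch 1, the Peg3 count of 3644 in INTACT replicate 1 of batch 1, and the Mirg count of 456.9 in FANS replicate 2 of batch 2. Kcnq1ot1 (20709) and Peg3 (3526) were both highest in FANS replicate 6 of batch 2, and Kcnq1ot1 (20852) and Ube3a (5558) in INTACT replicate 4 of batch 3. All 7 were the highest value of their group.

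The effect of technique differed between batches for 13 pairs of gene and batches by the interaction test in limma. Between batches 1 and 2 the differences of log2 fold changes (batch 1 minus the other) were -1.05 for Kcnq1ot1, -0.98 for Ube3a, -0.76 for Meg3, -0.43 for Snhg14 (adjusted p = 0.0122), -0.37 for Peg3 (0.00492) and 0.31 for Rian. Between batches 1 and 3 they were -1.26 for Kcnq1ot1, -1.23 for Ube3a, -1.05 for Meg3, -0.74 for Snhg14 (2.55e-06), -0.47 for Peg3 (4.6e-05), 0.30 for Rian (0.000605) and 1.06 for Ndn. Batch, source and RNA quality cannot be told apart in this design.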

How the results depend on the processing

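Of 481 values of the 9 transcripts under alternatives, 469 kept direction and side of the threshold, 11 changed sign and 1 lost its call (Snhg14 of batch 1 without FANS replicate 3). The sign changes were all in values that had not passed the test. Genes called numbered 1205, 19 and 52 in batches 1 to 3. DESeq2 gave 8 in batch 2, and leaving out FANS replicates 6 and 7 of batch 3 gave 88, with 4 of the set at an adjusted p under 0.05 in place of 0, which is no test because those libraries were known to be high for Kcnq1ot1 and Ube3a.

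Same-numbered libraries did not deviate together (r from -0.07 to 0.11), which cannot decide whether the numbers pair them. With a replicate block, 4 genes were called in batch 2, where only replicates 1, 2 and 4 are shared and 4 FANS libraries and 1 INTACT library were dropped, and 110 in batch 3, where FANS replicates 6 and 7 were dropped. It gave 7 of the set an adjusted p under 0.05 in batch 3, none at 1.5-fold, and Ube3a of batch 2 was at -0.047, as against -0.00028 with scaling to the 75th percentile. On the same batch 3 libraries, without FANS replicates 6 and 7, 1105 genes passed the adjusted p with the block and 580 without it. The cause of these differences was not tested.

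Without each library in turn, genes called ranged from 1074 to 1356 in batch 1, 6 to 39 in batch 2 and 32 to 72 in batch 3. The lowest counts came when INTACT replicate 1 of batch 2 or INTACT replicate 3 of batch 3 was omitted, and the highest on omitting FANS replicate 5 or FANS replicate 7. Of the set, 4 to 5 were called in batch 1 and 0 in the others, and those at an adjusted p under 0.05 numbered 0 to 1 in batch 2 (Snhg14, without INTACT replicate 3) and 0 to 4 in batch 3 (4 without FANS replicate 7). Log2 fold changes ran from -0.52 to 0.21 for Magel2 in batch 1 and, in batch 2, from -0.025 to 0.099 for Kcnq1ot1, -0.031 to 0.089 for Peg3, -0.063 to 0.28 for Ndn and -0.022 to 0.055 for Ube3a.

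Mean peaks over the bodies (30.0 in FANS and 15.3 in INTACT) were 21.3 and 11.3 at a -log10 q of at least 5 and 26.0 and 11.7 with the summit in the body. Start-site peaks (12.3 and 8.33) were 9 and 7.67 at that -log10 q, and 8.67 and 6 within 1 kb. With body length in place of exonic length, 3, 3, 3, 2, 4 and 3 of 9 ranks held in FANS and INTACT of batches 1, 2 and 3 in turn. Few reads limit Magel2 and the small RNA rows, and ATAC depth is unknown.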
